A study of Mus musculus with 6 samples.

Results

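The matrix metalloproteinases (MMP) and the ADAMTS proteases are the secreted and membrane-bound enzymes that cut the extracellular matrix, and their transcripts were examined in mouse aortic roots. Genes were taken when an array probe set carried exactly 1 annotated symbol of the form Mmp or Adamts followed by a number, leaving out the ADAMTS-like genes, and each gene was represented by its probe set of highest mean log2 signal over the 6 arrays. The rule gave 33 genes, 18 MMP and 15 ADAMTS, of 18193 genes measured. They were carried by 57 probe sets, and 16 genes had several. Adamts2, Adamts13, Adamts14, Adamts17, Mmp15, Mmp21, Mmp25, Mmp27 and Mmp28 had no such probe set and were not analysed here.

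Klotho-deficient mice carried the mutant klotho allele on both chromosomes and were set against wild-type mice, all of strain C57BL/6J albino and aged 6 to 6.5 weeks. The tissue was the hand-dissected root, with the valve leaflets, their annulus and adjoining ascending aorta. RNA from 3 mice was pooled for each array, so that 3 arrays and 9 mice stood for each genotype. Pools are named below by genotype and number, and the pool is the replicate throughout.

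MMPs are made as inactive zymogens whose propeptide blocks a catalytic zinc, and once cleaved they are held in check by the tissue inhibitors of metalloproteinases (TIMPs). ADAMTS enzymes carry thrombospondin repeats that anchor them in the matrix, and different members cut proteoglycans, trim procollagens or associate with fibrillin. In the mouse heart valve, cleavage of the proteoglycan versican by ADAMTS enzymes accompanies the thinning of the leaflets during maturation.

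The deposited intensities shared a common trimmed mean and had medians of 425.6 to 556.6 per array. The targeted gene gave signals of 138.3, 217.4 and 189.1 in klotho-deficient pools 1 to 3, against 166.7, 184.7 and 202.1 in wild-type pools 1 to 3. The position of the Kl probe against the mutated stretch is unknown, and these signals therefore do not check the labels. Markers of smooth muscle, of fibroblasts and valve interstitial cells, and of endothelium were measured for 6 of 6 listed genes each, with no gene below background. Klotho-deficient pools 2 and 3 lacked Y-linked transcripts, with summed signals of 115 and 124.2, against 8465.7 in klotho-deficient pool 1 and 7191.8 to 9156.4 in the wild-type pools. The labels do not give the sex of the mice. For many of the genes the difference is also given from the 4 arrays with Y-linked transcripts, which leave klotho-deficient pool 1 alone against 3 wild-type pools. Wild-type pool 3 had a 3' to 5' Gapdh ratio of 7.18, against 3.23 to 4.08 on the other arrays. Of the 6 endothelial genes, 5 had a negative difference between genotypes, with a median of -0.51 over the 6. The klotho-deficient pools lay below all wild-type pools for 3 of the 6, Tek, Tie1 and Icam2, against 6.84% of all genes. Summed endothelial signals were 17495.9, 15501 and 17198.7 in klotho-deficient pools, against 19010, 18493 and 30040.6 in wild-type pools, with wild-type pool 3 the highest.

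No MMP or ADAMTS transcript passed the test between genotypes. Limma called 0 of the 33 genes at an adjusted p under 0.05, and 0 of all 18193 genes (0%). At an unadjusted p under 0.05 there was 1 gene of the 33, Adamts1, against 6.41% of all genes. The 3 klotho-deficient pools lay entirely above or entirely below the 3 wild-type pools for 3 of the 33 genes (9.09%), against 13.5% of all genes. These were Adamts1 and Adamts3 above, where the share over all genes was 6.63%, and Adamts9 below, where it was 6.84%. None of these counts is a larger share of the 33 members than the share over all genes beside it.

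Differences, given throughout as klotho-deficient minus wild type in log2 units with the standard error (SE) of the limma fit, were positive for 19 members and negative for 14. Their median was 0.21 over all 33 members and 0.02 over the 23 members with a mean log2 signal above background, against 0 over all genes and -0.01 over all genes above background. The median over the 33 members turned to -0.0244 when wild-type pool 3 was left out. The median size of a difference, without its sign, was 0.27 over those 23 members and 0.19 over all genes above background. Adjusted p-values of the members ran from 0.77 to 1.00.

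**Figure D1:**
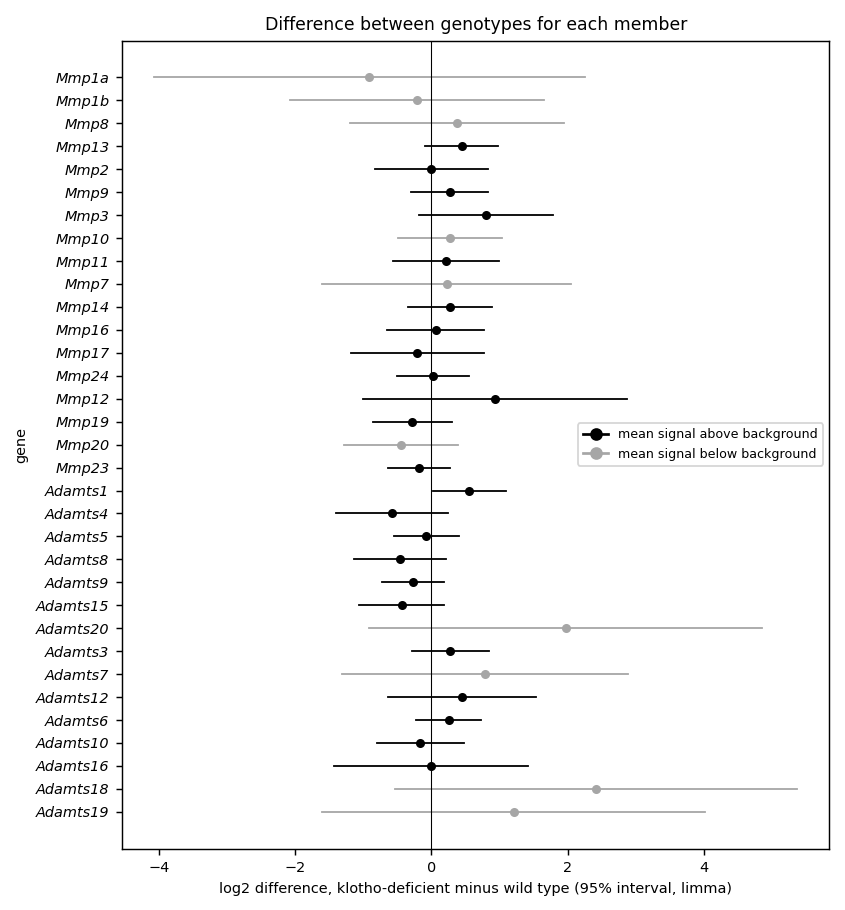
Difference of each of the 33 genes between klotho-deficient and wild-type aortic roots, in log2 units, with its 95% interval from limma, in black for genes with a mean signal above background and in grey for the others. The interval of Adamts1, from 0.02 to 1.09, is the 1 interval among them that lies clear of 0, before any adjustment for the 18193 genes tested.

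How many of these proteases gave a signal in the root depends on the level taken as background. It was set at 161.8, the highest signal of 27 Bacillus control probe sets, made from bacterial sequence absent from the mouse. By that level 23 of the 33 genes had a mean log2 signal over the 6 arrays above background (69.7%, against 73.2% of all genes), and 21 exceeded it on every array. At a stricter level of 1500.7, the controls' median plus 3 scaled median absolute deviations, 9 of the 33 were above it. The text uses the level of 161.8. Adamts7, Adamts18, Adamts20, Mmp1a, Mmp1b, Mmp8 and Mmp10 stayed below it on every array of both genotypes, so no fold is given for them. Adamts16, Adamts19, Mmp13 and Mmp20 exceeded it on some arrays, and Mmp7 on klotho-deficient pool 2 alone.

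**Figure D2:**
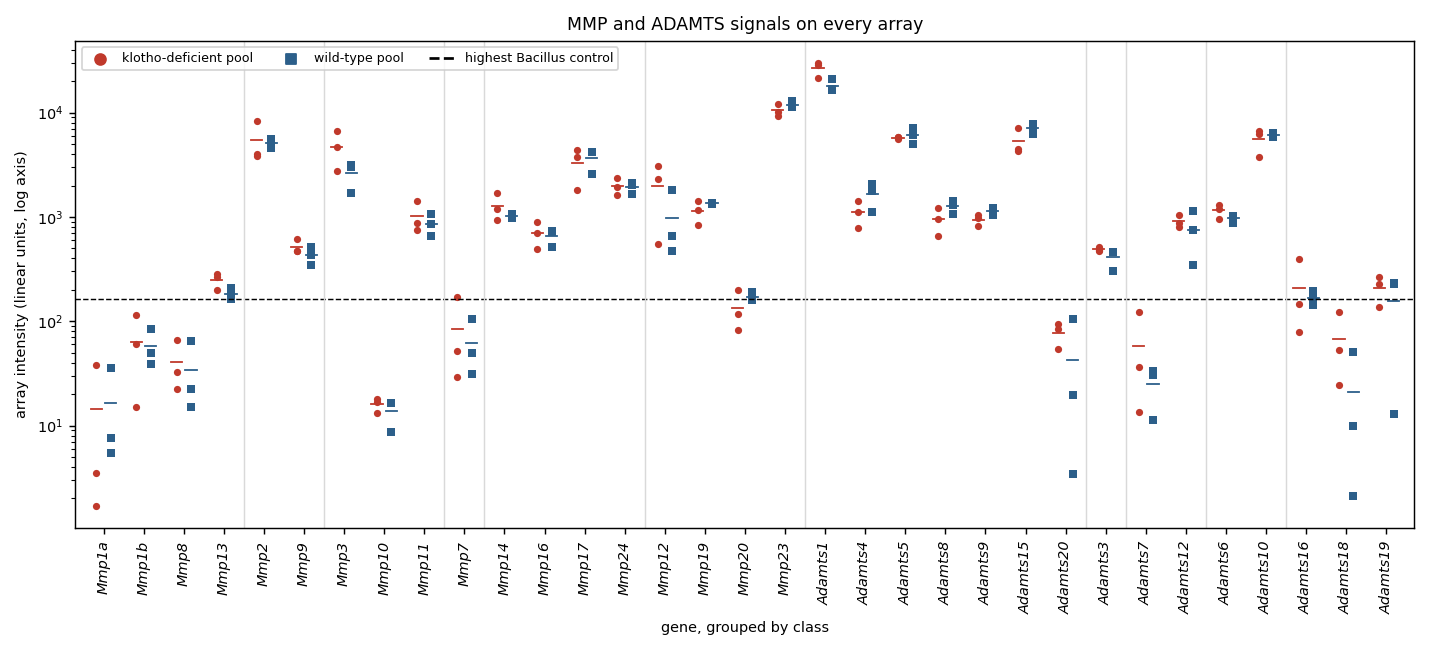
Signal of each gene on each array, in linear array intensity on a log axis, with klotho-deficient pools as red circles left of wild-type pools as blue squares, a short line at each genotype's mean and a dashed line at the background level of 161.8. Points of 1.7 and 2.1 are the lowest drawn, and 7 genes lie wholly under the dashed line; signals of different genes come from different probes and are not compared.

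Among the proteoglycan-cleaving ADAMTS genes, Adamts1 had the smallest p of all 33 members. Adamts1 encodes a secreted protease that cuts versican and aggrecan. Its signals were 28886.4, 21412.1 and 29972.4 in klotho-deficient pools 1 to 3, against 16796.5, 16482.5 and 21216.6 in wild-type pools 1 to 3. All 3 klotho-deficient pools were above all 3 wild-type pools, but the groups nearly touched: klotho-deficient pool 2 was 1.009 times wild-type pool 3, and with the arrays centred on their medians they overlapped. The means were 26760 ± 4661 and 18170 ± 2647 (SD, n = 3 each), a 1.467-fold ratio. The difference was 0.55 ± 0.22 (unadjusted p = 0.0446, adjusted p = 0.77), which placed it at rank 1030 of all genes by p. It ran from 0.46 to 0.71 over 17 alternative settings, with no adjusted p below 0.433, and was 0.68 on the arrays with Y-linked transcripts. These settings are not separate checks of its sign. The replicate block, the other variance prior, the filter on dim genes and the mean of probe sets leave the estimate unchanged. With no overlap between the groups, leaving out arrays could not make it negative. Because the tissue is a mixture, a change in the number of cells that make a transcript and a change in the RNA each cell makes cannot be told apart for this or any other gene.

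The promoter of Adamts1 is shown because it is the 1 member with an unadjusted p under 0.05. It spans 250 bases before to 50 after the annotated start in RefSeq GRCm38.p6, at chr16:85803064-85803363 on the minus strand, and the capitals mark the letters TATAAA, whose first base is at position -32 counted from the start.
Adamts1: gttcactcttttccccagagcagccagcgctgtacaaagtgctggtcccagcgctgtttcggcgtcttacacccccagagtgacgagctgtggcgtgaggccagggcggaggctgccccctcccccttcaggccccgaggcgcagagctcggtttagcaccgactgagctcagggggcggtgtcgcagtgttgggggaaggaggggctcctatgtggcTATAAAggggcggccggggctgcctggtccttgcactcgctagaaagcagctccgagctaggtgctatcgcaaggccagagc

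The other proteoglycan-cleaving members gave 5 negative differences and 1 positive one, which belonged to Adamts20 below background. Adamts9, which takes part in versican cleavage in the mouse valve, measured 967.3, 1035 and 809.2 in klotho-deficient pools, against 1121.6, 1226.8 and 1037 in wild-type pools. The klotho-deficient pools were all lower, and the nearest pair of arrays differed by a ratio of 1.002. The difference was -0.27 ± 0.18 (adjusted p = 0.831), and all 3 of its probe sets gave a negative value, from -0.53 to -0.10. It was -0.17 without klotho-deficient pool 3. Summed endothelial markers were lower in klotho-deficient pools as well, and were highest in wild-type pool 3. That pool was the lowest wild-type pool for Adamts9. Mesothelial and epithelial markers had a negative difference for 5 of 6 genes, with a median of -0.39. The part of either list in this and the other negative differences was not tested.

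Adamts4 and Adamts5 are the best known aggrecanases. Adamts4 measured 1107.7, 784.2 and 1435.6 in klotho-deficient pools, against 2075.2, 1785.4 and 1111.1 in wild-type pools. Wild-type pool 3 lay at the level of klotho-deficient pool 1 and below klotho-deficient pool 3. Its difference was -0.57 ± 0.34 (adjusted p = 0.813), with a second probe set at -0.26, and was -0.35 without klotho-deficient pool 2. Adamts5 measured 5777.6, 5842.9 and 5590.3 in klotho-deficient pools, against 7195.1, 6098.2 and 5052 in wild-type pools. The klotho-deficient values of Adamts5 lay inside the wild-type range, and the difference was -0.08 ± 0.20. The probe sets of Adamts5 disagreed: 3 of 4 gave -0.11 to -0.08, and the other gave 0.34 with no overlap between genotypes (adjusted p = 0.866 among all probe sets).

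Adamts8 and Adamts15 are neighbouring protein-coding genes on chromosome 9 by the gene order of GRCm38.p6, and both enzymes can cut aggrecan. Adamts8 measured 959.3, 656.6 and 1219.9 in klotho-deficient pools, against 1423.7, 1311.3 and 1072.8 in wild-type pools. Adamts15 measured 4312.1, 4516 and 7192.7 in klotho-deficient pools, against 7123.7, 6241 and 7798.8 in wild-type pools. For both genes klotho-deficient pool 3 was the highest klotho-deficient value and lay within the wild-type range, while klotho-deficient pools 1 and 2 lay under it. The differences were -0.46 ± 0.28 for Adamts8 and -0.44 ± 0.26 for Adamts15, each with an adjusted p of 0.813. Adamts8 was -0.22 without klotho-deficient pool 2. Adamts15 was -0.67 without klotho-deficient pool 3 and -0.70 on the arrays with Y-linked transcripts. Adamts1 and Adamts5 are neighbours too, on chromosome 16, and their differences were 0.55 and -0.08.

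The procollagen, cartilage oligomeric matrix protein (COMP) and fibrillin groups of ADAMTS genes had differences of smaller size or wider spread. Adamts3, a procollagen N-propeptidase that also takes part in the activation of VEGF-C, measured 468, 482.3 and 519.7 in klotho-deficient pools, against 464.1, 465.8 and 304.1 in wild-type pools. The genotypes did not overlap, yet klotho-deficient pool 1 was only 1.005 times wild-type pool 2, and the difference of 0.28 ± 0.23 (adjusted p = 0.851) became 0.0743 without wild-type pool 3. With quantile normalization or with centring on the array medians the Adamts3 groups overlapped. Adamts12, which can cut COMP, measured 1053.7, 878.7 and 800.6 in klotho-deficient pools, against 1140.1, 743.1 and 345.1 in wild-type pools. Its difference of 0.45 ± 0.45 also turned on wild-type pool 3, without which it was -0.0244, and the mean of its probe sets gave -0.55. Adamts7, the other COMP-cleaving member, was below background.

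Adamts6 and Adamts10 encode proteases that bind fibrillin, and human ADAMTS10 is mutated in Weill-Marchesani syndrome. Adamts6 measured 1203.2, 1304.3 and 962.8 in klotho-deficient pools, against 1017.2, 1004.4 and 877.4 in wild-type pools, a difference of 0.25 ± 0.19 (adjusted p = 0.845). Klotho-deficient pool 3 was below wild-type pools 1 and 2, though with quantile normalization or with centring on the array medians the genotypes did not overlap. Without klotho-deficient pool 2 the difference was 0.16. Adamts10 measured 6722.5, 6290.3 and 3781.2 in klotho-deficient pools, against 6306.7, 5810 and 6102.1 in wild-type pools. Klotho-deficient pool 3 was the lowest of the 6 values, and the difference of -0.16 ± 0.26 became 0.10 without it.

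Of the remaining ADAMTS genes, Adamts16 measured 397, 147.4 and 78.1 in klotho-deficient pools, against 195, 165.2 and 143.7 in wild-type pools, so that both its highest and its lowest value came from klotho-deficient pools. The difference was -0.01 ± 0.58. Adamts19, whose loss causes valve disease in humans and mice, measured 265.3, 228.6 and 135.4 in klotho-deficient pools, against 230.4, 225.1 and 12.9 in wild-type pools. Its difference of 1.21 ± 1.15 rested on wild-type pool 3 and was -0.17 without that array. Adamts18 lay under background on all arrays.

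The stromelysin Mmp3, the macrophage elastase Mmp12 and the collagenase Mmp13 had the highest differences of the MMP genes above background. Mmp3, or stromelysin 1, cuts proteoglycans and fibronectin and activates other MMP zymogens. It measured 2776, 4665.3 and 6618.3 in klotho-deficient pools, against 1706.9, 3123 and 3005.7 in wild-type pools. Klotho-deficient pools 2 and 3 were above every wild-type pool and klotho-deficient pool 1 lay among them. The means were 4687 ± 1921 and 2612 ± 785.9 (SD, n = 3 each), and the difference was 0.81 ± 0.40 (adjusted p = 0.796). As single arrays were left out it ran from 0.51 to 1.14, and on the arrays with Y-linked transcripts it was 0.14.

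Mmp12 measured 550.9, 3071.9 and 2309.1 in klotho-deficient pools, against 651.4, 473.3 and 1816.1 in wild-type pools. The arrays split into 3 high and 3 low values, with klotho-deficient pools 2 and 3 and wild-type pool 3 high. The difference was 0.93 ± 0.80 (adjusted p = 0.859), was -0.58 on the arrays with Y-linked transcripts, and ran from 0.45 to 1.69 as single arrays were left out. Its within-genotype SD of 1.18 log2 units was the largest of the 23 members and at percentile 99.4 of all genes above background. The macrophage markers, 6 of 6 listed genes measured with Itgam below background on every array, had summed signals of 28982.3, 32727.4 and 29737.9 in klotho-deficient pools, against 27395.6, 24016.5 and 31856.1 in wild-type pools. As a mean of log2 signals centred on each gene, the list stood at -0.49, 0.18 and 0.19 in klotho-deficient pools and at -0.11, -0.08 and 0.31 in wild-type pools. The 3 arrays high in Mmp12 were also the 3 with the highest macrophage mean, and the part of these cells in the result was not tested.

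Mmp13, or collagenase 3, is made by chondrocytes and osteoblasts among other cells and cuts fibrillar collagen. It measured 199.1, 282.5 and 267.4 in klotho-deficient pools, against 177.4, 161.5 and 208.4 in wild-type pools, all close to the background level. Klotho-deficient pools 2 and 3 were above every wild-type pool. The difference was 0.44 ± 0.22 (adjusted p = 0.794), and 0.13 on the arrays with Y-linked transcripts. Cartilage markers, 8 of 8 measured, had summed signals of 7435.5, 18765.5 and 38387.5 in klotho-deficient pools, against 9460.4, 11791.2 and 9288.6 in wild-type pools. They were therefore highest in the same pools, klotho-deficient 2 and 3, that were highest in Mmp3 and Mmp13 and lacked Y-linked transcripts, and their part in these results was not tested.

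Neutrophil markers, of which 7 of 8 were measured with Elane and Mpo below background on every array, had sums of 1371.3, 2029.3 and 2100 in klotho-deficient pools, against 704.6, 1007.2 and 1129.3 in wild-type pools. The sums were higher in every klotho-deficient pool, and S100a9 was the largest part of that, at a mean of 859.9 in klotho-deficient pools and 119.5 in wild-type pools. As a mean of centred log2 signals the genotypes overlapped, at -0.50, 0.68 and 0.64 in klotho-deficient pools and -0.40, -0.33 and -0.08 in wild-type pools. That mean includes the signals below background of Elane and Mpo, at 10 and 12.8 in klotho-deficient pool 1. It therefore does not decide whether the genes above background separated. The genotypes did not overlap for 2 of the 7 genes, S100a8 and S100a9, against 13.5% of all genes. Mmp8, the neutrophil collagenase, stayed between 15.2 and 66.4 on all arrays, under background. The other collagenases, Mmp1a and Mmp1b, which are the rodent counterparts of human MMP1, and Mmp10, or stromelysin 2, were under background as well. Mmp11, or stromelysin 3, measured 883.5, 751.9 and 1411.8 in klotho-deficient pools, against 1076.9, 850.9 and 656.3 in wild-type pools. Klotho-deficient pools 1 and 2 lay within the wild-type range and klotho-deficient pool 3 above it, and the difference of 0.21 ± 0.32 was -0.05 without it.

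Mmp13, Mmp12, Mmp1b, Mmp3, Mmp1a, Mmp10, Mmp8, Mmp27, Mmp20 and Mmp7 are 10 consecutive protein-coding genes on chromosome 9. Of the 9 that were measured, 3 had a mean above background and 4 were below it on all arrays. The promoters of Mmp3, Mmp12 and Mmp13, the 3 genes of the cluster with a measured level, are shown because most promoters of the cluster share a set of letters. Each is from RefSeq GRCm38.p6 and lies on the plus strand of chromosome 9, spanning 250 bases before to 50 after the start, at chr9:7445572-7445871 for Mmp3, chr9:7347124-7347423 for the second annotated start of Mmp12 and chr9:7272264-7272563 for Mmp13. Capitals mark TGACTCA or TGAGTCA, the letters bound by the AP-1 factors of the Fos and Jun families, and TATAAA.
Mmp3: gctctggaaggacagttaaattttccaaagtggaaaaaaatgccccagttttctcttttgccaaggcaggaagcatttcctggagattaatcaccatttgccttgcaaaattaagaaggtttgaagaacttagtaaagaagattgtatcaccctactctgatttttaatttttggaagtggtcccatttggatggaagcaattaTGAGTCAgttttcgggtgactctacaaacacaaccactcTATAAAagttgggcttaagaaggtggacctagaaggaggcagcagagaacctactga
Mmp12: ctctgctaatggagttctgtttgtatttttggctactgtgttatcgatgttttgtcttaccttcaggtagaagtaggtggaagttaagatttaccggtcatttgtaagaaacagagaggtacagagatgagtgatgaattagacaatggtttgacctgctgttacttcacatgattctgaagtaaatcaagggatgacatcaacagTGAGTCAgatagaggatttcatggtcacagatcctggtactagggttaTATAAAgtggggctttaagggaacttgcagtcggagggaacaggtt
Mmp13: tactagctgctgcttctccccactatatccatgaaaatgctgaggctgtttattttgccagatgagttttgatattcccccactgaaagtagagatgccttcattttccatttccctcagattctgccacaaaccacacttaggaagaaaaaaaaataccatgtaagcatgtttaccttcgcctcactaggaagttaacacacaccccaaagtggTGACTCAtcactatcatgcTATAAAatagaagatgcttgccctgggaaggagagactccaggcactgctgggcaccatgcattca

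Counted from the start base as 1 with no 0, the first AP-1 base is at position -46 in Mmp3, -44 in Mmp12 and -35 in Mmp13. The first annotated start of Mmp12 holds neither set of letters. Promoters were matched for 19 of the 33 members, 22 promoters in all because some genes have more than 1 annotated start. The AP-1 letters, which are each other's reverse complement, were in 7 of these 22 promoters, against 5.2% of all 32851 promoters. They belonged to 7 of the 19 genes, namely Mmp1a, Mmp1b, Mmp3, Mmp7, Mmp10, Mmp12 and Mmp13, though Mmp7 and Mmp12 each have a further start without them. All 7 were among the 9 cluster genes with a promoter, and 0 of the 10 other genes had the letters. TATAAA on either strand was in 10 of the 22 promoters, of 10 genes, against 13.62% of all promoters. The letters AGGAAG on either strand, a core of the ETS factors, were in 10 of the 22 promoters, of 9 genes, against 35.35% of all promoters. Genes with the AP-1 letters included both those measured above background and 3 below it on all arrays, Mmp1a, Mmp1b and Mmp10. A match of letters is a description and not a site of binding.

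The gelatinases overlapped between genotypes. Mmp2, or gelatinase A, which cuts denatured collagen and is activated at the cell surface by Mmp14, measured 3845, 4014.9 and 8385.4 in klotho-deficient pools, against 5139.4, 5557.1 and 4546.9 in wild-type pools. Klotho-deficient pool 3 was the highest of the 6 values and the other klotho-deficient pools were the lowest, so the difference was -0.0015 ± 0.34 with an interval from -0.83 to 0.83. On the arrays with Y-linked transcripts it was -0.40. Mmp9, or gelatinase B, measured 468.6, 471.5 and 608.4 in klotho-deficient pools, against 434.3, 520.3 and 342.1 in wild-type pools. Its difference was 0.27 ± 0.23 (adjusted p = 0.862) and its second probe set gave 0.12. It was 0.11 without wild-type pool 3, 0.14 without klotho-deficient pool 3 and 0.41 without wild-type pool 2. Mmp7, or matrilysin, measured 29.3, 171.6 and 52.2 in klotho-deficient pools, against 31.3, 105 and 50.1 in wild-type pools, which puts both means below background.

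The membrane-anchored MMPs were all above background on every array. Mmp14, the transmembrane activator of Mmp2, measured 937.5, 1186.4 and 1681.8 in klotho-deficient pools, against 1067.5, 1010.7 and 985.5 in wild-type pools. The wild-type pools lay within the klotho-deficient range, and the difference was 0.27 ± 0.25 (adjusted p = 0.873), or 0.0472 without klotho-deficient pool 3 and -0.12 on the arrays with Y-linked transcripts. Mmp16, another transmembrane member, measured 898.6, 489.4 and 696.1 in klotho-deficient pools, against 716.5, 740 and 509 in wild-type pools. Mmp17, which is held in the membrane by a lipid anchor, measured 3719.7, 1807.5 and 4388.5 in klotho-deficient pools, against 4217.2, 4168.6 and 2581.1 in wild-type pools. Mmp24, a transmembrane member known mainly from the nervous system, measured 1619.6, 1929.8 and 2356 in klotho-deficient pools, against 1652.2, 2034.6 and 2097.2 in wild-type pools. In all 3 genes the klotho-deficient pools held both the highest and the lowest of the 6 values. The difference was 0.06 ± 0.29 for Mmp16, -0.21 ± 0.40 for Mmp17 and 0.02 ± 0.22 for Mmp24. On the arrays with Y-linked transcripts Mmp16 was at 0.48.

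Of the other MMPs, Mmp23 is a small member released from the membrane by cleavage. It measured 12210.3, 9267 and 10067.1 in klotho-deficient pools, against 11685.9, 11238.4 and 12802.8 in wild-type pools. Klotho-deficient pools 2 and 3 were below every wild-type pool, and the difference was -0.19 ± 0.19 (adjusted p = 0.882), or 0.04 on the arrays with Y-linked transcripts. Mmp19, a secreted member found in many tissues, measured 832.8, 1423 and 1152.6 in klotho-deficient pools, against 1325.8, 1372.8 and 1342 in wild-type pools. Its wild-type pools were closely spaced and the klotho-deficient pools spread to both sides of them, a difference of -0.28 ± 0.24 (adjusted p = 0.859). It was -0.0725 without klotho-deficient pool 1, -0.46 without klotho-deficient pool 2 and -0.69 on the arrays with Y-linked transcripts. Mmp20, or enamelysin, the protease of tooth enamel, measured 117.1, 200.1 and 82.9 in klotho-deficient pools, against 159.6, 160.3 and 192.1 in wild-type pools, around the background level.

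**Figure D3:**
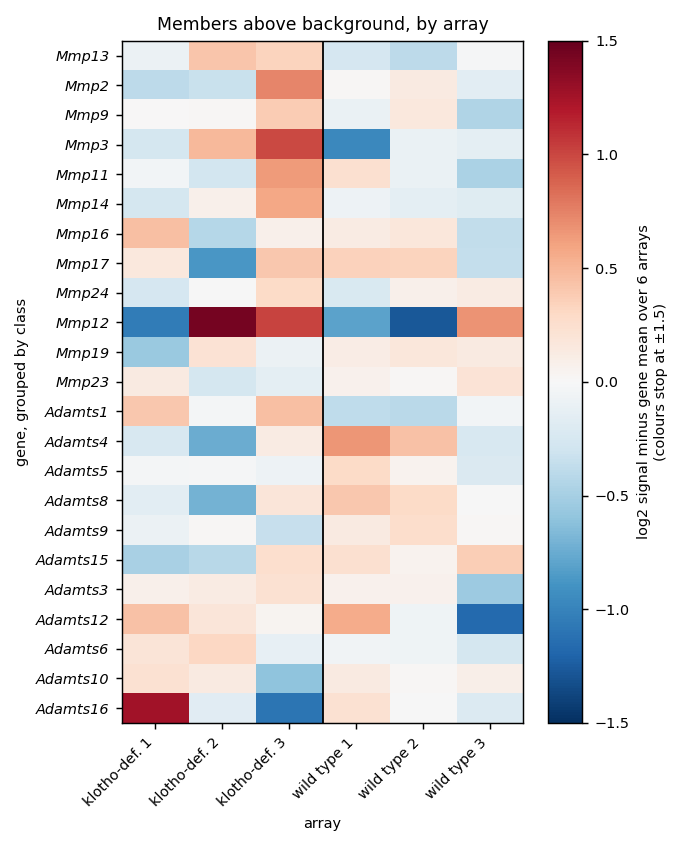
Log2 signal of the 23 members above background on each array, minus the gene's mean over the 6 arrays, with the klotho-deficient arrays left of the wild-type arrays and red for values above the gene's mean. Klotho-deficient array 3 holds the highest value for 9 of the 23 genes, and Mmp12 has the widest range.

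High and low values were spread unevenly over the pools, for the members and for all genes above background alike. Klotho-deficient pool 3 held the highest value of the 6 arrays for 9 of the 23 members (39.1%), against 24.5% of all genes above background. Wild-type pool 3 held the lowest value for 6 members (26.1%), against 19.9% of all genes above background. It held the highest value for 2 members (8.7%), against 25.5% of all genes above background. The within-genotype SD had a median of 0.31 log2 units over the 23 members and 0.28 over all genes above background, and was smallest in Adamts9 and Mmp23 at 0.16. Of the 23 members, 0 had a difference larger than 1 log2 unit, and Mmp12 came nearest at 0.93.

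Several genes could be read from more than 1 probe set. Of 12 genes with 2 or more probe sets above background, 7 gave the same sign in all of them (Adamts4, Adamts6, Adamts9, Adamts10, Mmp9, Mmp19 and Mmp23). The 5 with both signs were Adamts5, Mmp2, Mmp14, Mmp16 and Mmp24. Most of their values lay between -0.11 and 0.08. The others were 0.34 in Adamts5, 0.27 and 0.33 in Mmp14, and 0.89 ± 0.47 in Mmp16. The other 3 probe sets of Mmp16 were between 0.00 and 0.08. Adamts12 had a second, dim probe set at -1.56 ± 1.09 beside the 0.45 of the one used.

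**Figure D4:**
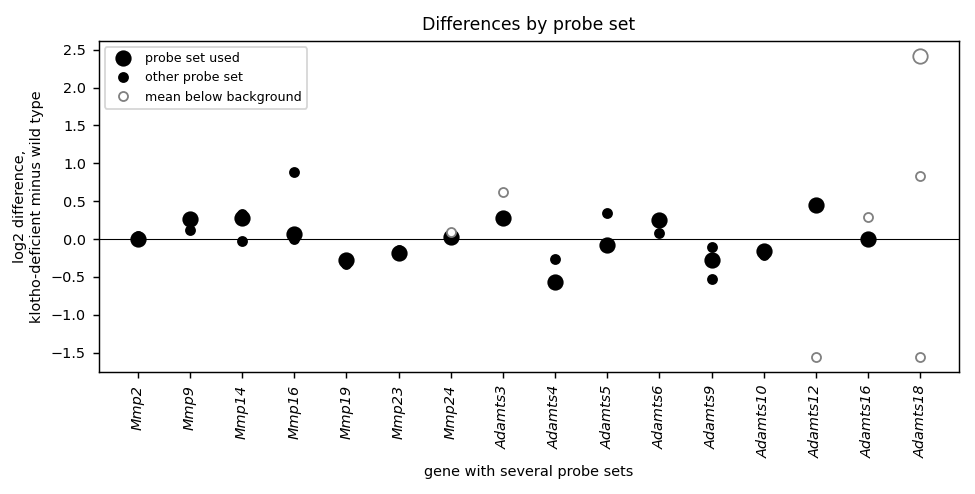
Difference between klotho-deficient and wild-type roots, in log2 units, for each probe set of the 16 genes with several, with large filled points for the probe set used, small filled points for other probe sets and open points for a mean below background. Adamts9 lies below 0 in all 3 of its probe sets, and Adamts5 lies at 0.34 in 1 probe set and below 0 in the other 3.

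The inhibitors, activators and substrates of these proteases were read from lists chosen with earlier results of these data known, and limma called 0 genes in any of them. All 4 TIMPs were measured and none of them overlapped between genotypes, against the 13.5% of all genes. With the arrays centred on their medians, Timp2 and Timp3 overlapped, while Timp1 and Timp4 did not. Timp1, a secreted inhibitor of most MMPs, measured 2543.9, 9642.4 and 9093.3 in klotho-deficient pools, against 1646.1, 1686.2 and 2028.8 in wild-type pools. The difference was 1.77 ± 0.54 (adjusted p = 0.692). Klotho-deficient pools 2 and 3, the pools without Y-linked transcripts, were the high ones, and the difference was 0.52 on the other 4 arrays.

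Timp4, an inhibitor found mostly in heart and vessels, measured 3341.1, 1768.5 and 3564.4 in klotho-deficient pools, against 965, 1154.5 and 1393.8 in wild-type pools. Here klotho-deficient pools 1 and 3 were the high ones. The difference was 1.25 ± 0.33 (adjusted p = 0.67), and 1.53 on the arrays with Y-linked transcripts. Timp3, which binds the matrix and inhibits ADAMTS enzymes as well, measured 26215.8, 27774 and 29951 in klotho-deficient pools, against 24225.4, 24795.5 and 23858.6 in wild-type pools, a difference of 0.20 ± 0.16. Timp2, which also serves in the activation of Mmp2 by Mmp14, measured 24695.3, 22647.2 and 24728.3 in klotho-deficient pools, against 27855.2, 25077.2 and 32573.5 in wild-type pools, a difference of -0.24 ± 0.18. On the deposited scale Timp1, Timp3 and Timp4 were thus higher and Timp2 lower on every klotho-deficient array, none of them past the threshold.

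Reck, a membrane-bound inhibitor of MMPs, measured 5466, 4147.3 and 6573.1 in klotho-deficient pools, against 5593.2, 5998.4 and 5252.3 in wild-type pools, a difference of -0.08 ± 0.22. It was 1 of 5 measured among 7 other protease inhibitors, of which 4 had a negative and 1 a positive difference. A2m, the broad protease trap alpha-2-macroglobulin, averaged 625.2 ± 172.1 in klotho-deficient pools and 1022 ± 304.9 in wild-type pools (SD, n = 3 each), without overlap, a difference of -0.71 ± 0.32 (adjusted p = 0.77). Papln, or papilin, a matrix protein related to the ADAMTS family, averaged 153.7 ± 56.39 in klotho-deficient pools and 290.3 ± 51.85 in wild-type pools, a difference of -0.98 ± 0.35 (adjusted p = 0.753), also without overlap. The klotho-deficient mean of Papln was below the background level of 161.8, with klotho-deficient pool 3 at 88.7. The Papln difference was -0.62 without klotho-deficient pool 3, and that of A2m was -0.47 without klotho-deficient pool 2. Tfpi2, with a mean log2 signal below background, was the other of these genes without overlap, averaging 113.8 ± 32.12 in klotho-deficient pools and 199.3 ± 49.02 in wild-type pools. The genotypes thus did not overlap for 3 of the 5 measured inhibitors, against 13.5% of all genes. Among 7 ADAMTS-like and papilin genes, 3 differences were positive and 4 negative, with Adamtsl3 at 0.48 ± 0.26. Adamtsl3 was at 0.30 without klotho-deficient pool 3 and at 0.0212 on the arrays with Y-linked transcripts. Thsd4 averaged 3324 ± 1145 in klotho-deficient pools and 2788 ± 451.3 in wild-type pools.

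Among 9 genes listed with the activators of the zymogens, the inducer Bsg and the receptor Plaur included, 4 differences were positive and 5 negative. The genotypes did not overlap for 4 of the 9, against 13.5% of all genes: the proprotein convertases Pcsk5 and Pcsk6, lower in klotho-deficient pools, and Klk1 and Plg, higher. Klk1 stood at 0.46 ± 0.18 (adjusted p = 0.77), Plg was below background, and the convertase Furin stood at 0.0049 ± 0.17. Pcsk5 averaged 4190 ± 830.1 in klotho-deficient pools and 6128 ± 511.2 in wild-type pools (SD, n = 3 each), a difference of -0.56 ± 0.21. Pcsk6 averaged 1196 ± 128.3 in klotho-deficient pools and 1672 ± 107.3 in wild-type pools, a difference of -0.49 ± 0.18. The adjusted p was 0.763 for Pcsk5 and 0.753 for Pcsk6. Bsg, an inducer of MMPs at the cell surface, averaged 9409 ± 1311 in klotho-deficient pools and 12830 ± 2601 in wild-type pools.

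The related ADAM proteases, which shed membrane proteins, were measured for 12 of 12 listed genes, with 6 positive and 6 negative differences. Adam17, the sheddase of tumour necrosis factor, averaged 3492 ± 277.2 in klotho-deficient pools and 4493 ± 218 in wild-type pools (SD, n = 3 each), a difference of -0.37 ± 0.17 without overlap. It was the 1 gene of the 12 without overlap, against 13.5% of all genes. Adam28 stood at 0.73 ± 0.38, or 0.46 without klotho-deficient pool 2. Adam10 averaged 10940 ± 783.8 in klotho-deficient pools and 11250 ± 1015 in wild-type pools. Of 7 cathepsins and meprins, 3 differences were positive and 4 negative, with the lysosomal proteases Ctss at 0.24 ± 0.30 and Ctsl at -0.10 ± 0.19.

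Substrates of the proteases gave differences of both signs. Of 8 genes listed with the proteoglycans, 6 were positive and 2 negative. Vcan, or versican, the proteoglycan cut by Adamts1, Adamts5 and Adamts9, measured 11104.9, 11156.4 and 13105.6 in klotho-deficient pools, against 9825.4, 9022 and 6721.2 in wild-type pools. All klotho-deficient pools were higher, a difference of 0.48 ± 0.21 (adjusted p = 0.77), and it was 0.32 without wild-type pool 3. Vcan was the 1 gene of the 8 without overlap, against 13.5% of all genes. Ncan stood at -0.53 ± 0.42, but at -0.0768 without klotho-deficient pool 2 and -0.0629 on the arrays with Y-linked transcripts. Dcn averaged 46910 ± 5244 in klotho-deficient pools and 46330 ± 3665 in wild-type pools. Of 10 measured genes listed with the collagens and elastic fibres, 5 were positive and 5 negative. Col2a1, the collagen of cartilage, measured 242.2, 2890.8 and 4225.9 in klotho-deficient pools, against 193.2, 417.6 and 296 in wild-type pools, a difference of 2.32 ± 1.09 (adjusted p = 0.78) that was -0.25 on the arrays with Y-linked transcripts. Col5a1 stood at 0.23 ± 0.20, or 0.12 without wild-type pool 3. Col3a1 averaged 49350 ± 10290 in klotho-deficient pools and 54040 ± 2611 in wild-type pools.

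Of 13 measured transcription factors known to act on MMP promoters, 9 differences were positive and 4 negative. Junb, a component of AP-1, averaged 242 ± 45 in klotho-deficient pools and 160.4 ± 20.9 in wild-type pools (SD, n = 3 each), a difference of 0.58 ± 0.22 (adjusted p = 0.763). It was the 1 gene of the 13 without overlap, against 13.5% of all genes. Its wild-type mean was just under the background level of 161.8, with wild-type pool 3 at 138.4. The Junb difference was 0.25 on the arrays with Y-linked transcripts. Ets1, of the ETS family, stood at -0.37 ± 0.19. Jund, another AP-1 component, averaged 19750 ± 2902 in klotho-deficient pools and 22100 ± 3095 in wild-type pools.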

How the data were processed

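Aortic root RNA of 3 klotho-deficient and 3 wild-type pools was hybridised to Affymetrix mouse arrays. The authors deposited linear intensities for 45101 probe sets, from 0.1 to 131884.9, with a mean trimmed by 2% at each end that was the same on every array. RMA is the tool named per the submitters' processing notes, but how the values came to be on a linear scale is not stated there or in the labels. Intensities were log2-transformed with no offset and no further normalization. Exactly 1 gene was annotated for 34945 of the probe sets, and these gave 18193 genes.

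The test was limma's moderated linear model (version 3.58.1, R 4.3.3), two-sided, with Benjamini-Hochberg adjustment over all 18193 genes and a threshold of 0.05. The fit had 4 residual degrees of freedom and gained 2.1 from the prior. All p-values are limma's and measure the spread between pools of 3 mice, and precision is limited by the number of arrays. The procedure was tested on simulated data. Members and gene lists were chosen with earlier results of these data known. Values on every array were planned for members above background that do not overlap, have an unadjusted p under 0.05, are among the 6 brightest or lead their class, and were extended to the rest above background after their values were seen. Each list names, among its genes with a mean log2 signal above background, the 2 of smallest p and the 1 of highest probe signal, with all TIMPs and Reck. Tfpi2, Klk1, Plg, Plaur, Furin, the endothelial and neutrophil genes, and the mesothelial and epithelial list were named after their values were seen. Same-numbered pools had correlations of 0.17, -0.01 and 0.16 across genes, so the numbers were not shown to pair them. Alternatives were quantile normalization, a replicate block, centring on the median, offsets of 16 and 100, a filter on dim genes, another variance prior, array weights, the mean of a gene's probe sets, a term for the presence of Y-linked transcripts, leaving out the arrays that lack them, another background level and leaving out each array. Promoters are from RefSeq GRCm38.p6. Python 3.11.15 and matplotlib 3.10.9 made the figures.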

Additional observations from a re-analysis of the deposited data

How the results depend on the processing

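Limma called 0 of the 33 members and 0 pathway genes in every alternative run, the replicate block included, where Adamts1 kept 0.55 (adjusted p = 0.725). Calls over all genes numbered 1 with an offset of 16, an offset of 100, dim genes left out or array weights, and 2 with a trended and robust prior. They ran from 0 to 1 as single arrays were left out, the 1 coming without klotho-deficient pool 1. Members without overlap numbered 1 with the mean of all probe sets. With fewer arrays groups separate more easily: members without overlap numbered 21 of 33 on the arrays with Y-linked transcripts, where 55.8% of all genes had none. They numbered 9, 6 and 10 without klotho-deficient pool 1, 2 or 3, and 5, 4 and 8 without wild-type pool 1, 2 or 3, a range of 4 to 10, where 21.2% to 29.4% of all genes had none. With background at the controls' median plus 3 scaled median absolute deviations, 1500.7, 9 members were above it.

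Differences near 0 changed sign, and so did some larger ones. Among the larger ones were Col2a1 at 2.32, Mmp12 at 0.93, Adamts12 at 0.45 and Mmp14 at 0.27 in the main fit. Mmp24 was -0.0175 with quantile normalization and -0.0388 with array weights. Adamts16 was 0.0189 and 0.0666 with offsets of 16 and 100, 0.42 with array weights and 0.14 with the mean of probe sets. Mmp2 was 0.00 with the offset of 100 and 0.0191 with the mean of probe sets, where Adamts12 was -0.55 and Adamts5 0.0161. Array weights gave -0.10 for Mmp7, -0.0023 for Mmp11 and 0.0148 for Ctsl. The covariate for arrays without Y-linked transcripts and leaving those arrays out give the same estimate by construction. It sets klotho-deficient pool 1 alone against the wild-type pools. That single estimate was 0.15 for Adamts10, 1.25 for Adamts16, -0.90 for Mmp7, -0.12 for Mmp14, 0.0606 for Mmp17 and -0.24 for Mmp24. It was -0.58 for Mmp12, 0.0382 for Mmp23, -0.27 for Ctss, 0.0659 for Ctsl and -0.25 for Col2a1. The cause was not tested.

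As single arrays were left out, the difference ran from -0.32 to 0.10 for Adamts10, -0.0244 to 0.84 for Adamts12, -0.64 to 0.54 for Adamts16, -0.17 to 1.90 for Adamts19, -0.21 to 0.0474 for Adamts5, -0.0505 to 0.40 for Mmp11, -0.15 to 0.29 for Mmp16, -0.46 to 0.18 for Mmp17, -0.37 to 0.20 for Mmp2, -0.12 to 0.15 for Mmp24 and -0.49 to 0.79 for Mmp7. Signals near background have no floor, so the differences of dim genes are the least certain.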
